A study of Oryzias latipes with 5 samples.

Results

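COPI and COPII vesicle coats carry proteins between the endoplasmic reticulum (ER) and the Golgi, and their genes were followed here in medaka cells marked by the reporter col10a1:nlGFP. COPII vesicles bud from the ER when the GTPase SAR1, activated by PREB, recruits an inner layer of SEC23 and SEC24, which picks the cargo, and an outer cage of SEC13 and SEC31. COPI vesicles bud from the Golgi with the coatomer coat, recruited by ADP-ribosylation factors, and return receptors and escaped ER proteins to the ER. Skeletal cells secrete large amounts of collagen through this route, and in fish the loss of single coat genes disturbs the skeleton: sec23a and sec24d in zebrafish cartilage, sec24d in medaka vertebrae, and copa, copb1 and copb2 in the zebrafish notochord. The genes were chosen by symbol from the deposited table, together with zgc:112148, which the table describes as a homolog of the Golgi membrane protein TVP23. The rule found 53 of 25689 genes.

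The study compared 2 libraries from heterozygous col10a1 mutants (col10a1wt/mut) with 3 from wild-type siblings (col10a1wt/wt), described as biological replicates. All fish were of the Cab strain, homozygous for the col10a1:nlGFP reporter and 10 days post fertilization, after incubation at 30 °C. The product of col10a1, type X collagen, is best known from hypertrophic cartilage, and bone-forming precursors of fish also produce it. The labels call the cells a mixture of chondrocytes and osteoblast progenitors, and they do not say which col10a1 copy carries the mutation or how many fish went into a library. Values are FPKM, the fragment count of a gene per length and per library depth, a scale that corrects for gene length, so levels can be set side by side between genes.

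The table holds 2 col10a1 genes, and their levels were compared first. col10a1a stood at 4055 and 4135 FPKM in the mutant libraries, against 5384, 7272 and 6781 FPKM in the wild-type libraries, a two-sided exact permutation p of 0.1 over 10 splits, the smallest that 2 against 3 libraries can give (limma adjusted p = 0.399). col10a1b stood at 301 and 579.6 FPKM in the mutant libraries, against 374, 657 and 461 FPKM in the wild-type libraries, where the groups overlapped (two-sided exact permutation p = 0.7). A heterozygous change need not alter the transcript level, so neither gene settles the labels. Markers of the labelled cells were present in all 5 libraries, sp7, the osteoblast transcription factor, at 212 and 251 FPKM in the mutant libraries, against 193, 279 and 262 FPKM in the wild-type libraries, and sox9, the chondrocyte one, at 5.07 and 10.1 FPKM in mutants against 9.22, 10.1 and 12.5 FPKM in wild-type siblings. Reads recovered from FPKM came to 24791662 to 28012092 per library. Mutant library 2 stood apart, with reads on 12334 genes, against 19397 to 21134 in the others, although its total was within the range of the rest. A difference that it moved by over 1.5 times is given without it too. A floor of 3 reads on a 1 kb transcript equalled 0.0871 to 0.120 FPKM, which covers counting error only. Over all 13680 genes tested the median difference in log2(FPKM + 1), mutant minus wild-type, was -0.31, and it moved to 0.015 after quantile normalization.

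Of the 53 coat genes, 46 had at least 1 FPKM in at least 2 libraries and were tested; none of them met that filter through the mutants alone. Most tested coatomer subunits, several receptors and the SNARE genes sec22bb and BET1L had both mutants above every wild-type library. Of the 6 SEC23 and SEC24 genes of the inner COPII coat, 5 had a negative difference, where 65.9% of all tested genes did, and 3 had one without mutant library 2, where 67.2% of all tested genes did. None passed at an adjusted p under 0.05, where 0.00731% of all tested genes passed. At an unadjusted p under 0.05, limma gave 10 higher and 2 lower, beside 3.21% of all tested genes higher and 7.60% lower. With median-of-ratios scaling the split of the coat genes was 15 higher and 0 lower, beside 4.34% and 4.07% of all tested genes. With quantile normalization it was 12 higher and 1 lower, beside 4.90% and 4.11%. By voom on recovered reads, the other tool run, 0 passed and 11 higher and 1 lower had an unadjusted p under 0.05, beside 2.59% and 8.65% of all tested genes. Other limma settings gave fewer. Array weights left 6, all higher, beside 738 of 13680 genes, and no variance trend left 9, of them 8 higher, beside 1239. Leaving out a wild-type library left 8 to 9, all higher, beside 376 to 682 genes. Without mutant library 2, which leaves 1 mutant, no such count is given. The median log2 difference of the coat genes was then 0.15.

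In both mutants the level exceeded every wild-type library for 17 of the 46 tested coat genes, where 8.33% of all tested genes did. It was below every wild-type library for 5, where 26.0% of all tested genes did. Fitted differences were positive for 30 and negative for 16, where 34.1% of all tested genes had a positive one. The median log2 difference was 0.46, against -0.31 over all tested genes. Mutant library 1 alone lay above every wild-type library for 23 coat genes (16.0% of all tested genes) and the sparse mutant library 2 alone for 26 (30.7%). Below every wild-type library were 9 coat genes in mutant library 1 (40.6% of all tested genes) and 12 in mutant library 2 (55.4%). In a library of mixed cells, a change in the share of a cell type and a change in RNA per cell cannot be told apart.

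**Figure D1:**
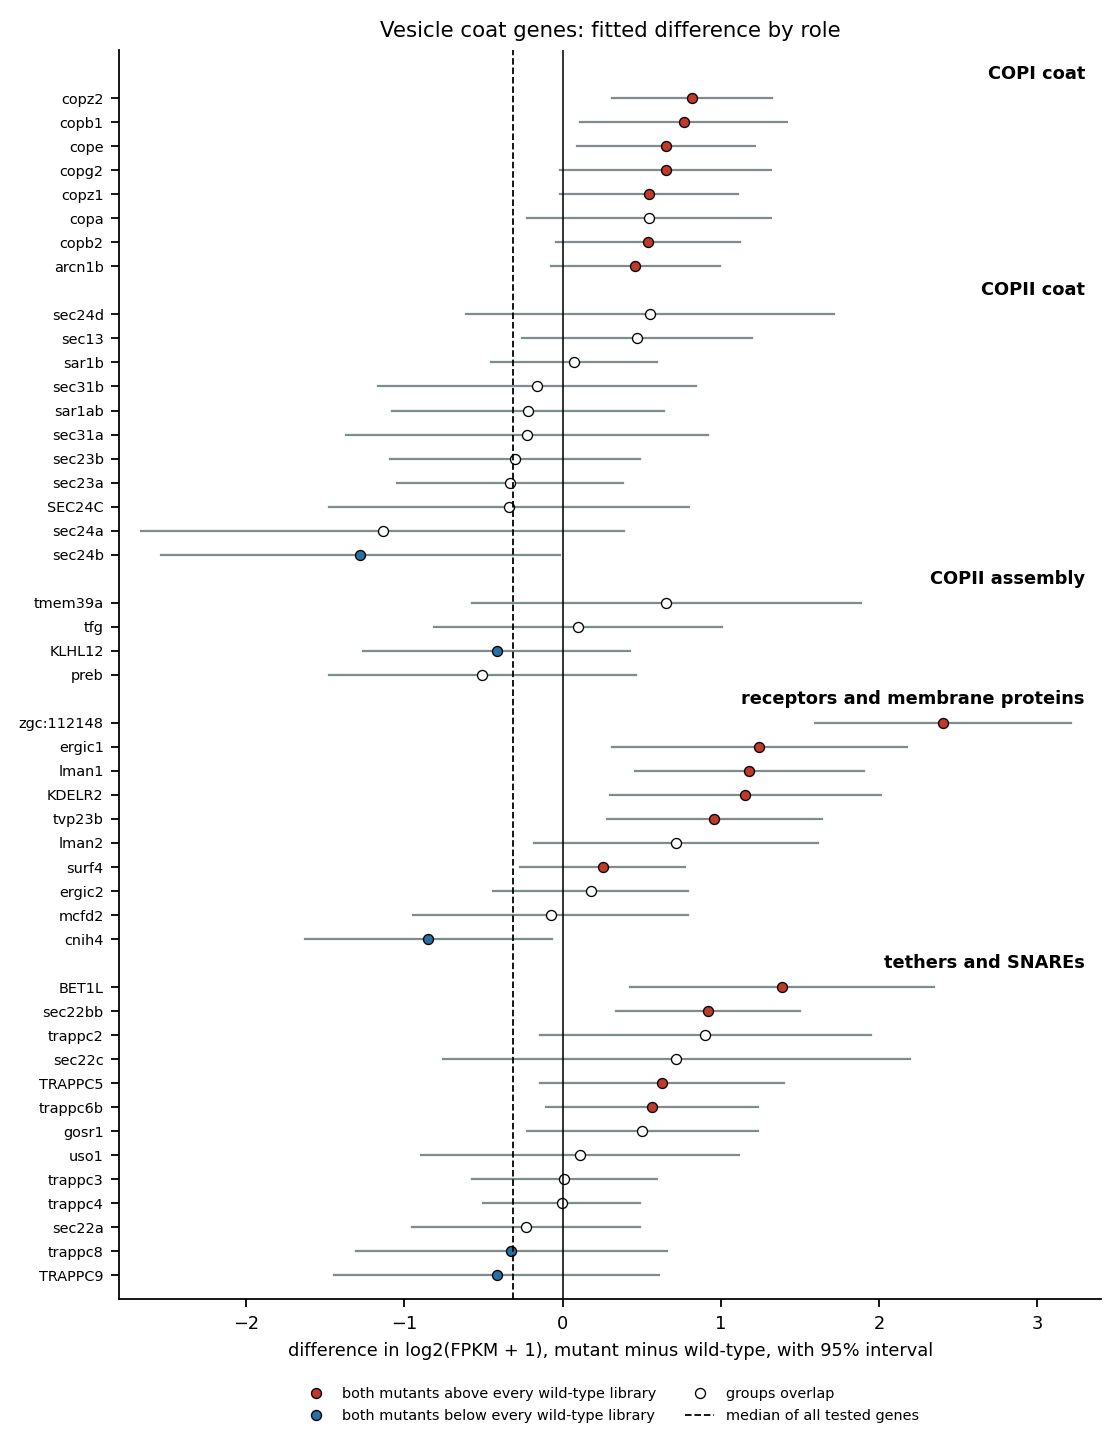
Fitted difference in log2(FPKM + 1), mutant minus wild-type, with its 95% interval from limma for the 46 tested coat genes, grouped by role; red points have both mutants above every wild-type library, blue points both below, white points overlap, and the dashed line is the median of all tested genes (-0.31). The 8 COPI points all lie right of 0, while the COPII coat points lie on both sides.

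The level of a gene bore on this background, and many coat genes are abundant. Among all tested genes the share with both mutants above every wild-type library was 3.75% at a mean under 5 FPKM, 8.34% at 5 to 20, 16.3% at 20 to 100 and 28.1% at 100 FPKM or more. The coat genes at these levels numbered 0 of 8, 3 of 12, 10 of 20 and 4 of 6. The mean is over all 5 libraries, so a gene higher in the mutants can reach a higher class through them. cope and copz1, at wild-type means of 84.7 and 93.8 FPKM, counted at 100 FPKM or more. ergic1 and BET1L, at wild-type means of 14.7 and 19.7 FPKM, counted at 20 to 100. Shares and counts by level are thus not independent of the difference. For levels below every wild-type library in both mutants the shares of all tested genes were 28.0%, 25.5%, 23.4% and 17.6% in the same order, and the coat genes numbered 3, 1, 1 and 0. At 20 to 100 FPKM, the class with the most coat genes, their median log2 difference was 0.54, against -0.083 for all tested genes of that level. Below 5 FPKM it was -0.33, against -0.54.

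**Figure D2:**
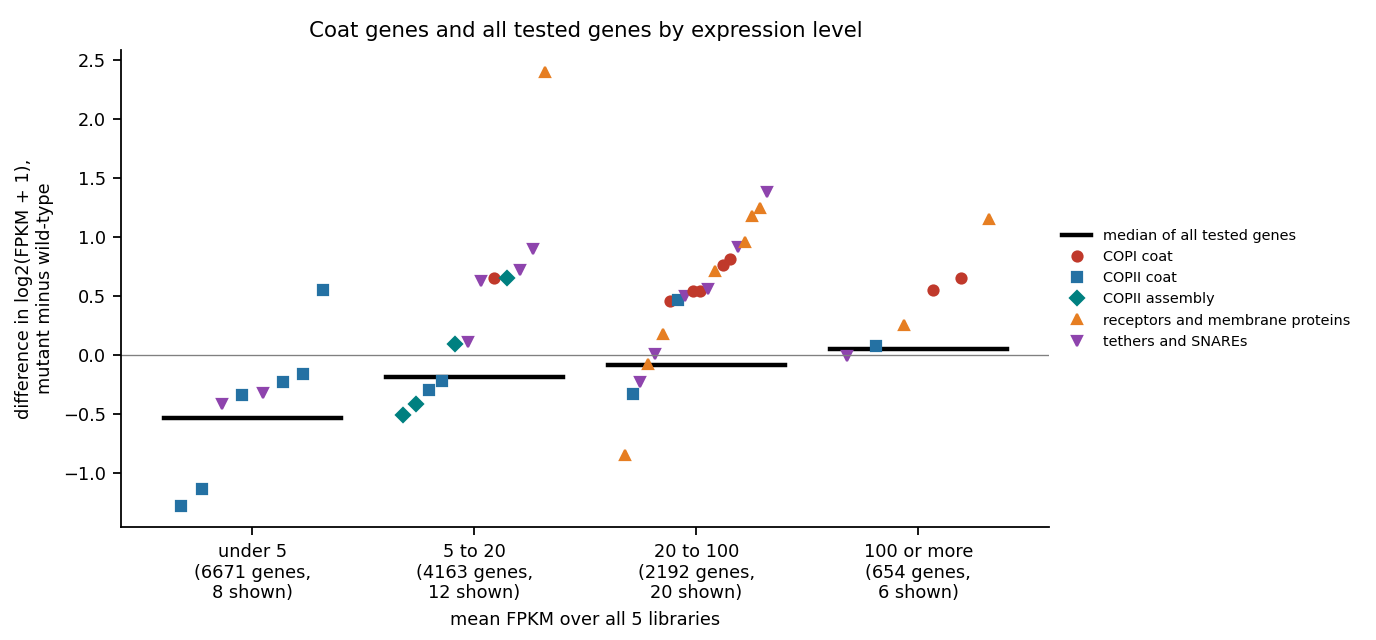
Fitted difference in log2(FPKM + 1), mutant minus wild-type, of the tested coat genes in 4 classes of mean FPKM over all 5 libraries, each symbol 1 gene marked by role, with a black line at the median of all tested genes of the class. Above 0 lie 8 of 12, 16 of 20 and 5 of 6 coat genes in the 3 upper classes, against 1 of 8 in the lowest. Of all tested genes 38.5%, 43.3% and 52.1% lie above 0 in the 3 upper classes, against 26.5% in the lowest. The lowest points, at under 5 FPKM, are the COPII genes sec24b and sec24a.

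All 8 tested coatomer genes had a positive log2 difference, where 34.1% of all tested genes did. Their differences ran from 0.46 to 0.81 with a median of 0.60. In 7 of the 8 both mutants were above every wild-type library, where 8.33% of all tested genes were. That share was 16.3% at a mean of 20 to 100 FPKM and 28.1% at 100 FPKM or more. None of the 8 passed the test (limma, adjusted p 0.399 to 0.413). The coatomer is built from alpha, beta, beta′, gamma, delta, epsilon and zeta subunits. In wild-type siblings their mean levels ran from 93.8 FPKM for copz1 to 14.3 FPKM for copg2.

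copz2, a zeta subunit (plus strand of chromosome 8, bases 24458757 to 24474599 in the deposited table), had the smallest p of the coat: it stood at 97.7 and 84.9 FPKM in the mutant libraries, against 53.6, 48.0 and 52.6 FPKM in the wild-type libraries. The groups did not overlap and mutant library 1 was the highest of all. Means were 91.3 ± 9.02 FPKM in mutants (SD, n = 2) and 51.4 ± 2.99 FPKM in wild-type siblings (SD, n = 3), a log2 difference of 0.81 (SE 0.22, 95% interval 0.31 to 1.32) with a limma adjusted p of 0.399. The other zeta gene, copz1, stood at 115 and 164 FPKM in the mutant libraries, against 95.8, 84.3 and 101 FPKM in the wild-type libraries. Its groups did not overlap either, although mutant library 1 was close to the highest wild-type library, and the difference was 0.55 (SE 0.24; 0.29 without mutant library 2).

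copb1, the beta subunit (plus strand of chromosome 3, bases 19359508 to 19374709 in the deposited table), stood at 39.3 and 53.7 FPKM in the mutant libraries, against 21.6, 30.7 and 28.5 FPKM in the wild-type libraries. copb2, the beta′ subunit, stood at 36.7 and 44.3 FPKM in mutants against 25.8, 31.0 and 25.8 FPKM in wild-type siblings. For both the lower mutant exceeded the highest wild-type library, and the log2 differences were 0.77 (SE 0.28) and 0.54 (SE 0.25). cope, the epsilon subunit, stood at 114 and 156 FPKM in mutants against 97.1, 77.3 and 79.7 FPKM in wild-type siblings, with a difference of 0.65 (SE 0.24; 0.43 without mutant library 2). copg2, the gamma subunit, stood at 20.5 and 25.7 FPKM in mutants against 13.6, 16.2 and 13.1 FPKM in wild-type siblings, with a difference of 0.65 (SE 0.29). In cope and copg2 too the mutants stood apart from the wild-type siblings, with mutant library 2 the highest. arcn1b, the delta subunit, stood at 89.6 and 94.9 FPKM in mutants against 57.9, 78.4 and 65.5 FPKM in wild-type siblings, again without overlap.

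copa, the alpha subunit, was the exception among the tested subunits, since mutant library 1 lay within the wild-type range. It stood at 30.6 and 50.8 FPKM in the mutant libraries, against 20.4, 33.0 and 28.3 FPKM in the wild-type libraries, a log2 difference of 0.55 (SE 0.33; 0.19 without mutant library 2). A second gene with the symbol COPB2, on chromosome 13, was under 1 FPKM in every library and was not tested. It stood at 0.570 and 0 FPKM in mutants against 0.954, 0.348 and 0.384 FPKM in wild-type siblings. These values rest on 59 and 0 reads in mutants against 102, 42 and 48 in wild-type siblings. With no filter on low values 8 of 9 coatomer genes had a positive difference and 1 a negative one. Their median was then 0.55, against -0.14 over all genes fitted. Summed over the coat, the level was 543 and 675 FPKM in mutants, against 387, 399 and 395 FPKM in wild-type siblings, whose values lay within a narrow range.

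**Figure D3:**
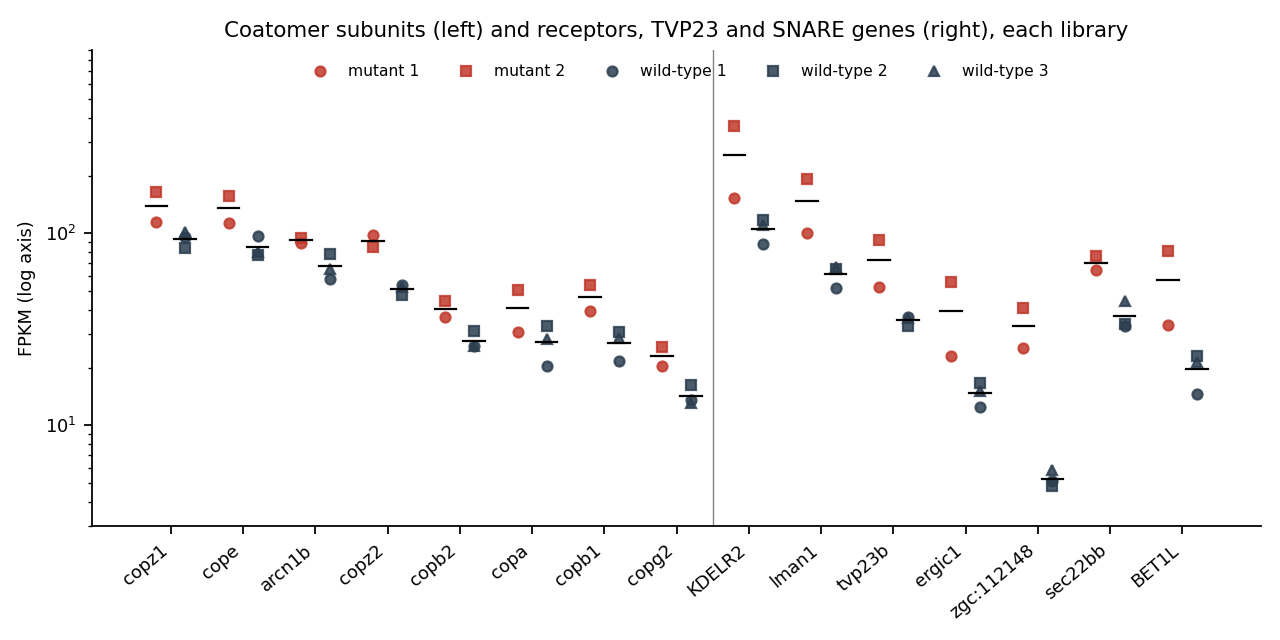
FPKM (log axis) of the 8 tested coatomer genes and of 7 receptor, TVP23 and SNARE genes in each library, mutants in red left of wild-type siblings in dark blue, with a bar at each group's mean. Apart from copa, every gene shown has both mutants above all 3 wild-type libraries, and mutant library 2 is the higher mutant except for copz2. The 7 genes on the right were picked from those with both mutants above, so this pattern follows from the choice. Receptors and SNAREs that overlapped or lay lower, such as gosr1 and cnih4, are not shown.

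The COPII coat genes went both ways, and whether they differed from the COPI genes was not tested. Of 11 tested genes 3 had a positive and 8 a negative difference, where 34.1% of all tested genes were positive. Their median was -0.23, close to that of all tested genes (-0.31). Without mutant library 2 the split was 5 positive and 6 negative with a median of -0.070, where 32.8% of all tested genes were positive. With quantile normalization it was 5 positive and 6 negative with a median of -0.033. The groups overlapped for 10, and the one without overlap, sec24b, was lower in the mutants. Of all tested genes 26.0% were below and 8.33% above every wild-type library in both mutants. A p over the threshold does not show that these genes were alike in the groups, and the 95% interval reached, for sec24a, from -2.66 to 0.39. Limma adjusted p ran from 0.399 to 0.868.

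sec23a, the more abundant SEC23 gene and the one linked to zebrafish cartilage (minus strand of chromosome 22, bases 2267970 to 2276979 in the deposited table), stood at 45.0 and 55.9 FPKM in the mutant libraries, against 44.2, 75.7 and 76.3 FPKM in the wild-type libraries. Both mutants lay between the lowest and the middle wild-type value, and the log2 difference was -0.33 (SE 0.31, 95% interval -1.05 to 0.38, limma adjusted p = 0.548). An entry of 345 bp without a symbol, described as SEC23A and overlapping sec23a on the same strand (ENSORLG00000025714), went the other way, at 21.4 and 32.6 FPKM in the mutant libraries, against 15.4, 20.9 and 13.6 FPKM in the wild-type libraries, so reads of this locus may be split between both entries. sec23b stood at 20.9 and 12.5 FPKM in mutants against 16.0, 23.9 and 21.3 FPKM in wild-type siblings, a difference of -0.30 (SE 0.34) that turned to 0.052 without mutant library 2.

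The 4 SEC24 genes, which bind cargo, were low in all libraries and differed between the mutant libraries. sec24a stood at 3.16 and 0 FPKM in the mutant libraries, against 3.73, 4.30 and 2.58 FPKM in the wild-type libraries. sec24b stood at 1.32 and 0.00684 FPKM in mutants against 1.58, 3.80 and 3.11 FPKM in wild-type siblings, and SEC24C at 1.51 and 0.00469 FPKM in mutants against 1.31, 1.03 and 0.735 FPKM in wild-type siblings. These values rest on 0, 1 and 1 read in the sparse mutant library 2, whereas mutant library 1 had 483, 141 and 235. Such losses were common there: of 4230 genes with at least 1 FPKM in each of the other 4 libraries and a mean under 5 FPKM, 32.6% had at most 1 read in mutant library 2. The fitted differences were -1.14 (SE 0.65) for sec24a, -1.28 (SE 0.54) for sec24b and -0.34 (SE 0.49) for SEC24C.

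Without mutant library 2 these differences were -0.11, -0.67 and 0.32, so the size of the first 2 and the direction of SEC24C rest on that library. sec24d, the gene whose loss affects the medaka vertebrae (plus strand of chromosome 18, bases 10324287 to 10347796 in the deposited table), stood at 1.98 and 5.41 FPKM in the mutant libraries, against 1.75, 2.42 and 1.81 FPKM in the wild-type libraries. Mutant library 1 matched the wild-type siblings, and the difference of 0.55 (SE 0.50) came from mutant library 2 (0.0016 without it). As a share of the summed FPKM of the 4 SEC24 genes, which does not depend on library scaling, sec24d made up 24.9% in mutant library 1 and 99.8% in mutant library 2, against 20.9%, 21.0% and 22.0% in wild-type libraries. A further gene without a symbol, described as SEC24C (ENSORLG00000000224) and outside this share, stood at 0.674 and 4.26 FPKM in mutants against 1.41, 1.60 and 0.976 FPKM in wild-type siblings. sec23a made up 68.2% and 81.8% of the SEC23 sum in mutants, against 73.4%, 76.0% and 78.2% in wild-type siblings, which lie between the mutants. The entry without a symbol on the sec23a locus is outside this sum. sec23b is itself described as SEC23A, sec31b as SEC31A and sar1b as SAR1a, and symbols were used as deposited.

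The other COPII coat genes had levels that overlapped between the groups. sar1b, the most abundant of them, stood at 150.0 and 183 FPKM in the mutant libraries, against 141, 150.4 and 184 FPKM in the wild-type libraries. sec13, an outer coat protein that also serves in the nuclear pore, stood at 81.6 and 154 FPKM in mutants against 69.4, 79.6 and 94.7 FPKM in wild-type siblings, where mutant library 1 sat in the wild-type range and only the sparse library was higher (log2 difference 0.47, SE 0.31, limma adjusted p = 0.436; 0.018 without that library). sar1ab, sec31b and sec31a averaged 5.64, 2.78 and 0.807 FPKM in mutants and 6.73, 3.27 and 0.993 FPKM in wild-type siblings. The summed coatomer level divided by the summed SEC23 and SEC24 level was 7.35 and 9.14 in mutants, against 5.64, 3.59 and 3.73 in wild-type siblings. This ratio, chosen after the values were seen, did not overlap between the groups and is given with no test. It leaves out the entries without a symbol described as SEC23A and SEC24C.

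Genes that assemble COPII also had differences of both signs. preb, the exchange factor that activates SAR1, stood at 8.79 and 4.36 FPKM in the mutant libraries, against 7.19, 10.3 and 10.8 FPKM in the wild-type libraries, and only mutant library 2 lay outside the wild-type range (log2 difference -0.51, SE 0.42, limma adjusted p = 0.506; -0.073 without that library). KLHL12, an adaptor of the CUL3 ubiquitin ligase that enlarges COPII carriers for procollagen in mammalian cells, was lower in both mutants, at 8.53 and 7.60 FPKM in mutants against 8.84, 15.2 and 10.1 FPKM in wild-type siblings (log2 difference -0.42, SE 0.36, limma adjusted p = 0.528). tfg, which organizes COPII at ER exit sites, stood at 7.17 and 14.6 FPKM in mutants against 8.34, 10.0 and 10.5 FPKM in wild-type siblings. tmem39a, whose worm counterpart is needed for collagen secretion in Caenorhabditis elegans, stood at 4.67 and 14.0 FPKM in mutants against 3.26, 5.69 and 6.04 FPKM in wild-type siblings. The differences of tfg and tmem39a, 0.096 (SE 0.39) and 0.66 (SE 0.53) with limma adjusted p of 0.901 and 0.499, became -0.37 and -0.045 without mutant library 2.

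**Figure D4:**
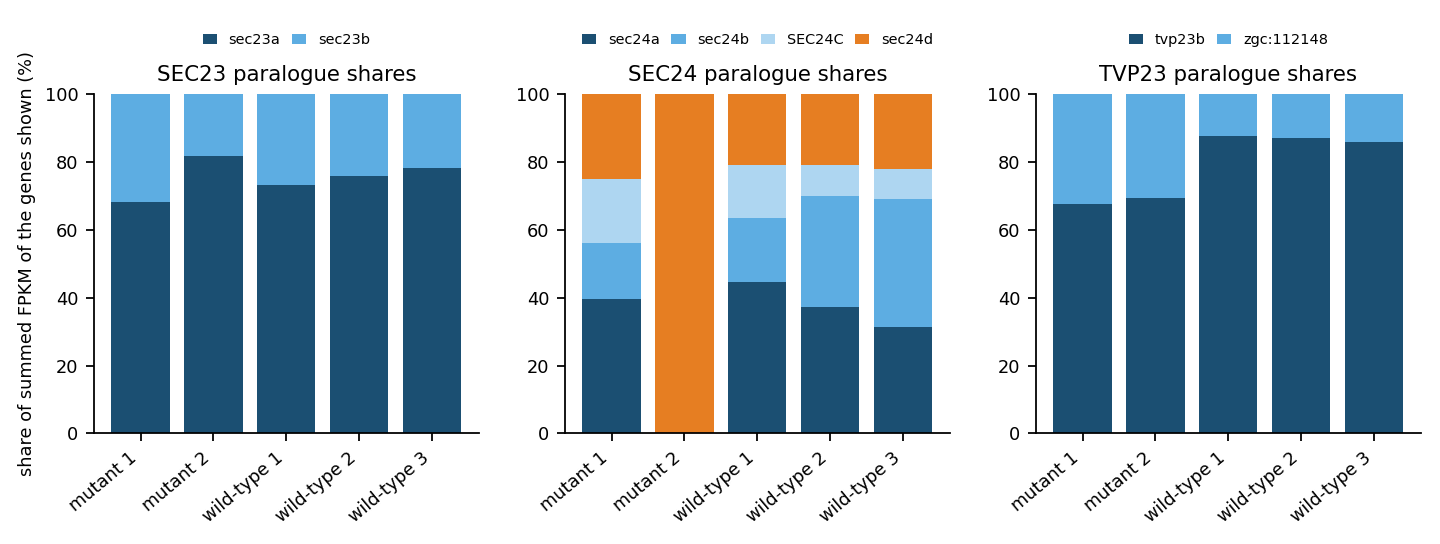
Share of each paralogue in the summed FPKM of the SEC23, SEC24 and TVP23 genes in each library, the 2 mutants left of the 3 wild-type siblings. In mutant library 2 nearly the whole SEC24 bar is sec24d (99.8%), while the zgc:112148 part of the TVP23 bar is larger in each mutant than in the 3 wild-type libraries.

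Receptors and membrane proteins of the route included the coat gene with the largest positive difference, zgc:112148. Of 10 tested, 8 had a positive difference, where 34.1% of all tested genes did. For 6 both mutants were above every wild-type library, where 8.33% of all tested genes were. By level, that share was 8.34% at a mean of 5 to 20 FPKM, 16.3% at 20 to 100 and 28.1% at 100 FPKM or more. The median log2 difference of the 10 was 0.84, or 0.51 without mutant library 2. zgc:112148 (minus strand of chromosome 8, bases 10149705 to 10152630 in the deposited table) stood at 25.1 and 40.8 FPKM in the mutant libraries, against 5.10, 4.82 and 5.86 FPKM in the wild-type libraries. Both mutants were several times above the narrow wild-type range, with means of 33.0 ± 11.1 FPKM in mutants (SD, n = 2) and 5.26 ± 0.540 FPKM in wild-type siblings (SD, n = 3), a ratio of 6.26. The fitted log2 difference came to 2.40 (SE 0.35, interval at 95% 1.60 to 3.21), with a limma adjusted p of 0.372. zgc:112148 was added to the rule after earlier results on these libraries had shown its difference, so its size is a description. It is included in the counts and medians given for these receptors and for all tested coat genes.

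A second TVP23 gene, tvp23b (minus strand of chromosome 19, bases 22413054 to 22420457 in the deposited table), carries the same description and stood at 52.3 and 92.1 FPKM in the mutant libraries, against 36.8, 33.0 and 36.2 FPKM in the wild-type libraries, a log2 difference of 0.96 (SE 0.29), or 0.56 without mutant library 2. zgc:112148 made up 32.5% and 30.7% of the summed FPKM of these genes in mutants, against 12.2%, 12.8% and 13.9% in wild-type siblings. The groups did not overlap in this share, which library scaling does not touch. The share was examined because the difference of zgc:112148 was known, so it is a description with no test. Reads that match both genes could be split between them. The values rest on 983 and 2188 reads in mutants and 206, 220 and 277 in wild-type siblings.

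KDELR2, the receptor that returns chaperones with a KDEL-type tail from the Golgi to the ER in COPI vesicles (minus strand of chromosome 8, bases 11618569 to 11623897 in the deposited table), stood at 152 and 361 FPKM in the mutant libraries, against 88.3, 118 and 111 FPKM in the wild-type libraries. lman1, the lectin ERGIC-53 that exports glycoproteins in COPII vesicles, stood at 101 and 192 FPKM in the mutant libraries, against 52.2, 65.1 and 66.5 FPKM in the wild-type libraries. ergic1, a protein that cycles through the ER-Golgi intermediate compartment, stood at 23.0 and 56.0 FPKM in mutants against 12.4, 16.6 and 15.1 FPKM in wild-type siblings. In all 3 genes both mutants exceeded every wild-type library and the sparse mutant library 2 was much the higher of the mutants. Log2 differences were 1.16 (SE 0.37), 1.18 (SE 0.31) and 1.24 (SE 0.40), each with a limma adjusted p of 0.399. In mutant library 1 alone they were 0.54, 0.72 and 0.62.

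Other receptors differed less or lay lower. surf4, which exports soluble secreted proteins, stood at 128 and 147 FPKM in the mutant libraries, against 97.9, 123 and 127 FPKM in the wild-type libraries, with mutants just above the wild-type range. lman2, the lectin VIP36, stood at 20.5 and 47.1 FPKM in mutants against 19.6, 20.9 and 15.6 FPKM in wild-type siblings, where mutant library 1 overlapped. mcfd2, the partner of lman1 in mammals, stood at 31.6 and 14.1 FPKM in mutants against 21.3, 25.9 and 20.3 FPKM in wild-type siblings. Mutant library 1 was above and mutant library 2 below every wild-type library. The log2 difference of mcfd2 was -0.075 (SE 0.37), or 0.48 without mutant library 2. ergic2 averaged 31.6 FPKM in mutants and 27.7 FPKM in wild-type siblings. cnih4, a cornichon cargo receptor, was lower in both mutants, at 58.7 and 27.1 FPKM in the mutant libraries, against 68.9, 75.2 and 74.5 FPKM in the wild-type libraries. Its log2 difference was -0.85 (SE 0.33, limma adjusted p = 0.399), and -0.31 without mutant library 2. cnih3, at 0.431 and 1.11 FPKM in mutants against 0.155, 0.384 and 0.559 FPKM in wild-type siblings, and CNIH2, at 0 and 0.0562 FPKM in mutants against 0, 0 and 0 FPKM in wild-type siblings, were not tested. ergic1 and cnih4 were named after their values were seen.

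Among SNAREs, which fuse vesicles with their target, BET1L and sec22bb stood apart in the mutants. sec22bb, a copy of the SNARE SEC22B of the ER-Golgi route (plus strand of chromosome 4, bases 6967532 to 6972860 in the deposited table), stood at 64.6 and 76.3 FPKM in the mutant libraries, against 33.0, 33.9 and 44.3 FPKM in the wild-type libraries. The mutants lay close together and well above the wild-type siblings, with means of 70.5 ± 8.31 FPKM in mutants (SD, n = 2) and 37.0 ± 6.28 FPKM in wild-type siblings (SD, n = 3) and a log2 difference of 0.92 (SE 0.25, limma adjusted p = 0.399). BET1L, a SNARE within the Golgi, stood at 33.4 and 80.9 FPKM in the mutant libraries, against 14.6, 23.0 and 21.5 FPKM in the wild-type libraries, a difference of 1.39 (SE 0.41) without overlap. That difference was 0.76 without mutant library 2 and 2.01 without mutant library 1. gosr1, another Golgi SNARE, stood at 27.0 and 48.3 FPKM in mutants against 23.2, 24.5 and 28.2 FPKM in wild-type siblings, with mutant library 1 in the wild-type range. The other SEC22 genes overlapped between the groups: sec22a stood at 17.0 and 22.1 FPKM in mutants against 17.5, 25.1 and 27.5 FPKM in wild-type siblings and sec22c at 3.39 and 18.3 FPKM in mutants against 4.02, 5.48 and 4.38 FPKM in wild-type siblings.

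The tethers that catch vesicles had differences on both sides of 0. Of 7 tested genes of the TRAPP complex within the rule 4 had a positive difference, or 3 of 6 leaving out trappc2, whose reads are in doubt. Among all 13 tested tethers and SNAREs 9 had a positive difference, with 4 above and 2 below every wild-type library in both mutants. Of all tested genes 34.1% had a positive difference, 8.33% lay above and 26.0% below every wild-type library in both mutants. Further TRAPP genes lay outside the rule. The log2 differences of trappc10, trappc11, trappc12 and TRAPPC14 were -0.95, -0.76, -0.95 and -0.83, and that of trappc13 was 0.15. In the same order they were -0.13, -0.40, -0.19, 0.014 and -0.25 without mutant library 2. That library had no read on trappc10, trappc12 and TRAPPC14. Both mutants were above every wild-type library for trappc6b, at 31.9 and 53.0 FPKM in mutants against 28.2, 27.9 and 26.5 FPKM in wild-type siblings (log2 difference 0.56, SE 0.29, limma adjusted p = 0.399; 0.21 without mutant library 2), and for TRAPPC5, at 12.7 and 20.1 FPKM in mutants against 10.1, 9.30 and 10.6 FPKM in wild-type siblings. They were below for TRAPPC9, at 2.98 and 1.89 FPKM in mutants against 4.34, 3.09 and 3.26 FPKM in wild-type siblings, and trappc8, at 2.85 and 3.17 FPKM in mutants against 3.23, 4.71 and 4.23 FPKM in wild-type siblings. trappc4 and trappc3, core subunits, overlapped between the groups, with trappc4 at 107 ± 13.9 FPKM in mutants (SD, n = 2) and 107 ± 7.76 FPKM in wild-type siblings (SD, n = 3). uso1, a tether of COPII vesicles, stood at 4.94 and 6.27 FPKM in mutants against 3.78, 7.34 and 4.67 FPKM in wild-type siblings. The entry with the symbol trappc2 stood at 9.53 and 24.9 FPKM in mutants against 9.59, 7.51 and 6.66 FPKM in wild-type siblings (log2 difference 0.90, SE 0.45, limma adjusted p = 0.399; 0.25 without mutant library 2), but the table describes it as RAB9A and it overlaps a RAB9A gene, so its reads cannot be assigned to trappc2.

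4 of the coat genes had no read in any library. They were kdelr3, bet1, gosr2 and trappc2l, and each overlaps another gene of the table, as 23 of the 53 coat genes do. sec61g, a translocon subunit that cells need, is also listed at 0 in all 5 libraries, so nothing is read from these zeros. The span of kdelr3 is that of an entry without a symbol that is also described as KDEL receptor 3.

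The table also holds 11 genes without a symbol that its descriptions place in these families, of which 8 were tested. They were picked by description after the values were seen. The most abundant, described as cornichon 1 (ENSORLG00000009172), stood at 223 and 323 FPKM in the mutant libraries, against 129.6, 116 and 144 FPKM in the wild-type libraries. Its mutants lay apart from the wild-type siblings, with a log2 difference of 1.05 (SE 0.24, limma adjusted p = 0.399). A gene described as KDEL receptor 2 (ENSORLG00000012960) stood at 42.0 and 32.5 FPKM in mutants against 23.6, 25.0 and 31.0 FPKM in wild-type siblings, and one described as MIA3, the TANGO1 protein that loads procollagen into COPII carriers (ENSORLG00000012031), at 4.54 and 5.15 FPKM in mutants against 4.08, 3.01 and 3.33 FPKM in wild-type siblings. A second entry that its description places with MIA3, of 360 bp, stood at 4.98 and 0 FPKM in mutants against 4.08, 3.13 and 2.66 FPKM in wild-type siblings. Its log2 difference was -0.80 (SE 0.75), or 0.49 without mutant library 2. A gene described as the COPII scaffold SEC16A (ENSORLG00000005139) stood at 1.25 and 0.0888 FPKM in mutants against 0.950, 1.07 and 1.30 FPKM in wild-type siblings, with 21 reads in mutant library 2.

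Other genes of ER-Golgi transport, 78 from a list of Golgi GTPases, cargo receptors, SNAREs and tethers outside the coat genes, gave 43 positive and 26 negative differences among 69 tested. None passed, 9 higher and 1 lower had an unadjusted limma p under 0.05, and the median was 0.068. Levels in both mutants exceeded every wild-type one for 17, where 8.33% of all tested genes did. They were below every one for 5, where 26.0% of all tested genes did. Of all tested genes 34.1% had a positive difference, and 3.21% higher and 7.60% lower had an unadjusted limma p under 0.05. The 8 tested TMED genes, cargo receptors of both coats, all had a positive difference, with a median of 0.76. Without mutant library 2 it was 5 of 8, with a median of 0.23. Among them tmed3 stood at 37.3 and 50.9 FPKM in mutants against 21.5, 19.7 and 17.4 FPKM in wild-type siblings (log2 difference 1.12, SE 0.27). arf5, a GTPase of the Golgi, stood at 1070.2 and 1428 FPKM in mutants against 636, 603 and 746 FPKM in wild-type siblings (0.91, SE 0.24). Both genes were apart between the groups, as were yipf6, at 152 and 224 FPKM in mutants against 92.8, 83.3 and 123 FPKM in wild-type siblings (0.90, SE 0.27), and golt1ba, at 33.6 and 47.2 FPKM in mutants against 19.4, 22.5 and 22.4 FPKM in wild-type siblings (0.87, SE 0.27). Each of these 4 had a limma adjusted p of 0.399.

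Lower members of that list included arfgap2, which releases the COPI coat by acting on ADP-ribosylation factors, at 63.1 and 38.5 FPKM in mutants against 71.1, 81.9 and 83.8 FPKM in wild-type siblings. creb3l2, a transcription factor that drives SEC23A in mouse chondrocytes, stood at 7.65 and 2.93 FPKM in the mutant libraries, against 8.58, 12.5 and 11.5 FPKM in the wild-type libraries. Both mutants lay below every wild-type library in both genes, with log2 differences of -0.66 (SE 0.27) and -1.01 (SE 0.45) and a limma adjusted p of 0.399 for each. Without mutant library 2 they were -0.31 and -0.44. cul3a, the ligase partner of KLHL12, stood at 5.39 and 0.165 FPKM in mutants against 8.21, 11.3 and 4.45 FPKM in wild-type siblings, and cog7, of a Golgi tether, at 6.19 and 0 FPKM in mutants against 6.30, 8.22 and 6.89 FPKM in wild-type siblings. Their differences of -1.64 (SE 0.75) and -1.59 (SE 0.79), with limma adjusted p of 0.399 and 0.399, rest on 18 and 0 reads in mutant library 2 and were -0.41 and -0.17 without it.

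Summed levels of cell type markers also differed between libraries. For the counts of markers given here, 8.33% of all tested genes lay above and 26.0% below every wild-type library in both mutants. The summed level of 24 chondrocyte markers was 259 and 353 FPKM in mutants, against 478 to 585 FPKM in wild-type siblings, and 12 of 21 tested ones were below every wild-type library in both mutants. The 1 above was col11a2, at 40.7 and 54.7 FPKM in mutants against 32.8, 40.4 and 32.2 FPKM in wild-type siblings. The summed level of 16 osteoblast and hypertrophy markers was 17935 and 18015 FPKM in mutants, against 20509.7 to 24144 FPKM in wild-type siblings, with 3 of 16 above and 7 below every wild-type library. This sum includes col10a1a itself and sparc, a matrix protein gene at 4200.0 and 3390.0 FPKM in mutants against 6937, 6693 and 6969 FPKM in wild-type siblings, while phospho1, a mineralization enzyme gene, stood at 6084 and 6243 FPKM in mutants against 4894, 5251 and 5369 FPKM in wild-type siblings. For 20 liver, gut and pancreas genes, markers of cells that also secrete heavily, it was 74295 and 28501 FPKM in mutants, against 44380.4 to 53758 FPKM in wild-type siblings, led by the apolipoprotein gene apoa1b, so mutant library 1 was the highest and mutant library 2 the lowest. The liver gene fabp10a stood at 13745 and 8633 FPKM in mutants against 7002, 5261 and 4795 FPKM in wild-type siblings. The pancreas gene prss1 stood at 537 and 11.3 FPKM in mutants against 205, 262 and 190.4 FPKM in wild-type siblings. For ins it was 9.80 and 10.3 FPKM in mutants against 0.369, 0.367 and 0.315 FPKM in wild-type siblings. Of the 18 tested markers of this list only 2, fabp10a and ins, were above every wild-type library in both mutants, and ins met the filter through the mutants alone. The 1 below was vtnb, at 112 and 88.6 FPKM in mutants against 133, 141 and 137 FPKM in wild-type siblings. Others overlapped, such as tfa at 5653 and 2432 FPKM in mutants against 4873, 6766 and 5287 FPKM in wild-type siblings. Epidermal markers summed to 1269.8 and 650.1 FPKM in mutants, against 771 to 1642 FPKM in wild-type siblings and muscle markers to 1357 and 794 FPKM in mutants, against 1127 to 1707 FPKM in wild-type siblings. Both mutants were above every wild-type library for 0 and below for 3 of 9 tested epidermal markers. For 12 tested muscle markers these counts were 0 and 2. Endothelial markers summed to 55.5 and 68.3 FPKM in mutants, against 34.6 to 42.9 FPKM in wild-type siblings, most of it from cldn5a at 52.6 and 63.4 FPKM in mutants against 30.4, 28.8 and 38.2 FPKM in wild-type siblings. Of 3 tested ones 1 was above and 1 below every wild-type library, with 1 and 6 of all 9 at 0 in the mutant libraries. Blood and immune markers summed to 196 and 129 FPKM in mutants, against 125 to 140.4 FPKM in wild-type siblings, and neural markers to 214 and 68.6 FPKM in mutants, against 198 to 211 FPKM in wild-type siblings, with 11 of 16 at 0 in mutant library 2. Both mutants were above every wild-type library for 2 and below for 2 of 8 tested blood and immune markers. For 11 tested neural markers these counts were 0 and 3. The part of these cells in the coat gene differences was not tested.

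**Figure D5:**
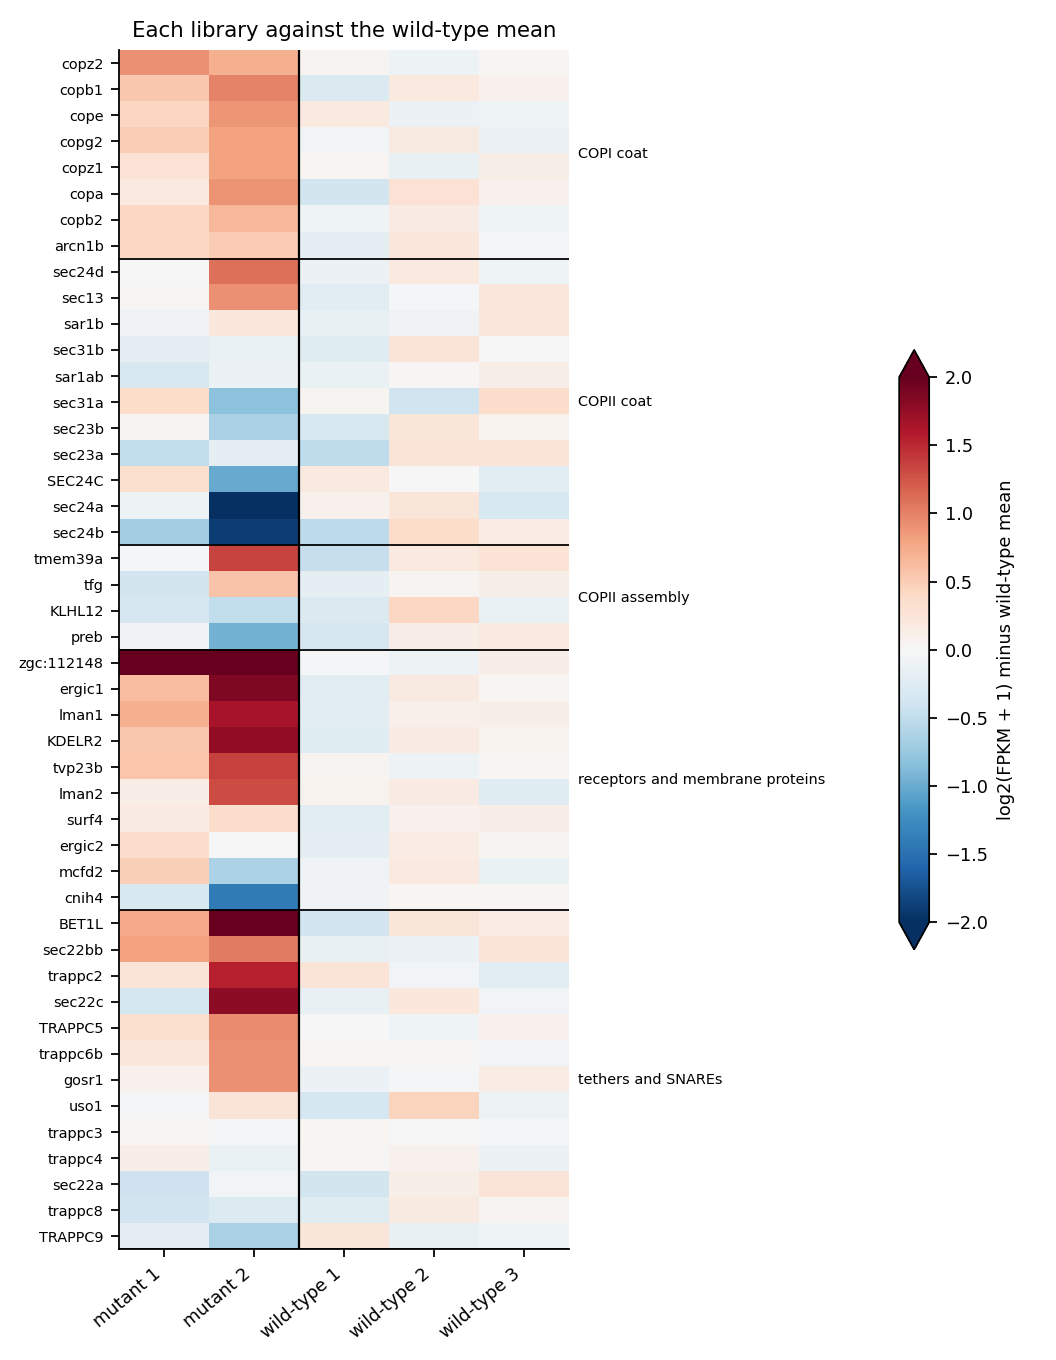
Log2(FPKM + 1) of each tested coat gene in each library minus its mean over the 3 wild-type libraries, by role, mutants left of the vertical line. COPI genes are red in both mutants, copa least in mutant library 1; in mutant library 2 COPII genes run from dark blue (sec24a, -2.16) to red (tmem39a, 1.36).

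Leaving out a mutant library changed the size of the coat gene differences, and leaving out mutant library 1 also changed how many passed. Without mutant library 2, the sparse one, the median log2 difference of the coat genes was 0.15, against -0.16 over all tested genes. Without mutant library 1, 27 passed, 22 higher and 5 lower, together with 7239 of 13340 genes, a fit in which the sparse library is the only mutant and is assumed to vary like the wild-type ones. The 8 coatomer genes kept a positive difference in both cases and under median-of-ratios and quantile scaling.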

How the data were processed

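RNA came from a Direct-zol MicroPrep kit and libraries from a SMARTER mRNA-Seq kit, per the labels' protocols. The authors deposited 1 FPKM value per gene and library with a gene length, per the file header. HISAT2 2.0.5 and featureCounts 1.5.0-p3 are named in the submitters' processing notes; build, annotation, strand setting and cell isolation are not given in sources used here. Coordinates are the table's own. Overlapping genes, and antisense ones, may share reads.

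FPKM multiplied by gene length came out as whole reads for 100% of values within 0.02 reads. The denominator behind the deposited FPKM was 0.981 to 1.23 times the summed reads, highest in mutant library 2. log2(FPKM + 1) was tested with limma 3.58.1 in R 4.3.3 (moderated by a variance trend; Benjamini-Hochberg adjustment over all tested genes, threshold 0.05) for genes reaching 1 FPKM in 2 or more libraries. Fold changes on this scale understate changes of low genes. Residual and prior degrees of freedom were 3 and 4.46. The procedure was tested on simulated reads drawn with the same spread in every library. None of the simulated libraries was sparse, so the simulation does not cover the gaps of mutant library 2. Tables and plots used python 3.11.15, pandas 2.3.3, numpy 2.4.6, scipy 1.17.1 and matplotlib 3.10.9.

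The coat genes, lists and tests were chosen with earlier results of these data known. In each role the up to 4 genes with the smallest p, all SEC23 and SEC24 genes, zgc:112148, and the 4 higher and 4 lower genes of the transport list with the smallest p were given in full; other coat genes are given by level. Symbols were compared without regard to case, with or without a paralogue letter a or b. Alternatives were another pseudocount, filter, scaling, variance model, weighting, a replicate block, voom on recovered reads, threshold 0.1 and leaving out each library.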

Additional observations from a re-analysis of the deposited data

How the results depend on the processing

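No coat gene passed under another pseudocount, filter, scaling, variance model, array weights, voom or a threshold of 0.1. Leaving out each library in turn gave 0 to 27 coat genes, 1 to 7239 of all genes, 0 to 37 of the other transport genes, and a median coat gene difference of 0.15 to 0.62, the highest values without mutant library 1. col10a1a passed only without mutant library 1 (-0.64, adjusted p = 0.0497, -0.78 to -0.56 on leaving out each library, adjusted p over alternatives 0.0497 to 0.810). Of 33 other genes with values under alternatives 29 kept their direction; 29 passed without mutant library 1. Among these 33 genes the direction turned without mutant library 2 for tmem39a, tfg, sec23b and SEC24C. On leaving out each library their differences ranged from -0.045 to 1.36, -0.37 to 0.56, -0.65 to 0.052 and -1.0 to 0.32. SEC24C also turned under quantile normalization (0.40), and the cause was not tested.

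Coat genes above every wild-type library numbered 17 as deposited, 21 with median-of-ratios scaling and 22 with quantile normalization, where all tested genes gave 11.2% and 13.8%; they were 23 to 26 on leaving out a mutant library. Those below (all tested genes 19.4% and 14.7% under these scalings) numbered 5, 2 and 1, and 9 to 12 on leaving out a mutant library. These counts were chosen after seeing the data.

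With the replicate number as a block 1 coat gene, zgc:112148, passed (2.47, adjusted p = 0.00869, range over its alternatives 8.15e-05 to 0.784) and 145 genes in all. Nothing in the labels pairs the libraries, and deviations of same-numbered libraries correlated at 0.058 and -0.012 across genes. Total reads did not set mutant library 2 apart (27916294 reads), while the number of genes with reads did.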
